A study of Mus musculus with 20 samples.

Results

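The genes described here encode the proteins of the mitochondrial ribosome, the particle inside mitochondria that makes the few respiratory chain subunits encoded by mitochondrial DNA. They were taken as all genes whose symbol on the array begins with Mrpl (large subunit) or Mrps (small subunit), read from probe sets with exactly 1 symbol, with the probe set of highest mean over the 20 arrays standing for each gene. This gave 76 genes of the 18193 genes with such a probe set. Mrpl30 and Mrpl53 were found only on probe sets that carry several symbols and were left out. All 76 lay above the filter on low values (a mean of 6.93 on the log2 scale), among 12082 genes that were tested.

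The samples were heart ventricles of female C57BL/6 mice, 5 in each of 4 groups. Every mouse, controls included, had been ovariectomized at 8 weeks of age, the loss of the chief supply of estrogen, and carried an osmotic minipump for 4 weeks. Total RNA of each sample was hybridised to 1 Affymetrix mouse array, on which a gene is read by 1 or more probe sets. The pumps held 16α-LE2, an agonist of estrogen receptor α, or 17β-estradiol, both complexed with cyclodextrin, or placebo. The samples titled beta are labelled as having received control solution, so title and treatment disagree, and they were kept apart as the beta-titled group. Doses are not given in the labels, which also do not tie the samples to animals, so p-values measure only the spread between these samples. The arrays asked how stimulation of receptor α acts on the heart.

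The mitochondrial ribosome descends from a bacterial one. It has kept many bacterial proteins and gained others that bacteria lack, while its own RNAs have shrunk. Its RNAs come from mitochondrial DNA, but its proteins are encoded in the nucleus, made in the cytosol and imported. The heart, whose muscle cells are packed with mitochondria, depends on it to build the respiratory chain. Nuclear genes of this kind are textbook targets of the transcription factors NRF1 and GABP (an ETS family factor), and YY1 sites are common in their promoters.

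Promoter windows of RefSeq (build GRCm38.p6, from 250 bases before to 50 after the start of transcription) were matched by gene ID to 67 of the 76 genes. Letters were searched on both strands, and a match describes letters, not a bound site. An NRF1 match, GCGCA and GCGC with any base between them, was found for 12 of the 67 genes (17.9%), against 5.19% of the 27025 genes of the table. The ETS letters CCGGAAG were found for 25 genes (37.3% against 9.93%) and the YY1 letters AAGATGGC for 12 (17.9% against 3.19%). At least 1 of the 3 was found for 41 genes, 61.2% against 16.4% of all genes. Over all motifs searched, those named next included, 2 matches of different motifs overlapped in the windows of the 67 genes. The GC box GGGCGG was found for 34 genes (50.7% against 38.2%) and the TATA letters TATAAA for 5 (7.46% against 15.7%). The full estrogen response element was searched as GGTCA and TGACC with any 3 bases between them. It was found for none of the 67 genes and for 0.074% of all genes. The letters of an estrogen-related receptor site, TCAAGGTCA, were found for none and for 0.466%.

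The 250 bases before the start are printed here for 4 of the genes whose values are described further on. They are Mrpl17 (chr7:105811088-105811337, minus strand), Mrpl18 (chr17:12916092-12916341, minus strand), Mrpl39 (chr16:84735245-84735494, minus strand) and Mrpl45 (chr11:97315466-97315715, plus strand). Capitals mark the NRF1 and ETS matches. Mrpl17 holds 1 of each, Mrpl18 1 ETS match, Mrpl39 1 NRF1 match and Mrpl45 2 NRF1 matches. In its whole window, the bases after the start included, Mrpl45 holds 3 NRF1 matches.
Mrpl17: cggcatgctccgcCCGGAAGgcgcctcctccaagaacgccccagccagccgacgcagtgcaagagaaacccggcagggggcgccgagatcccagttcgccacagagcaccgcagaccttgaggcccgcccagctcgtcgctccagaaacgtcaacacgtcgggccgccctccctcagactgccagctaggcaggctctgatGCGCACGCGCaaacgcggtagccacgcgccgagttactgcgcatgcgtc
Mrpl18: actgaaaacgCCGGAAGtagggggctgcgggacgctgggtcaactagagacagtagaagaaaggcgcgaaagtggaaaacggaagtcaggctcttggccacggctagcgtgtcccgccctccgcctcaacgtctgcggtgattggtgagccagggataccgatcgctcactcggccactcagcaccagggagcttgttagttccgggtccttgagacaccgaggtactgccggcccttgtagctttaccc
Mrpl39: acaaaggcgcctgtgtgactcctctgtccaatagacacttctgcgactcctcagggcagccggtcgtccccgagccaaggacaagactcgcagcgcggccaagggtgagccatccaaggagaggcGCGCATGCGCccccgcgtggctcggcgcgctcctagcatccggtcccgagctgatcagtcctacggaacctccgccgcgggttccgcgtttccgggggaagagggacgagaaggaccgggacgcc
Mrpl45: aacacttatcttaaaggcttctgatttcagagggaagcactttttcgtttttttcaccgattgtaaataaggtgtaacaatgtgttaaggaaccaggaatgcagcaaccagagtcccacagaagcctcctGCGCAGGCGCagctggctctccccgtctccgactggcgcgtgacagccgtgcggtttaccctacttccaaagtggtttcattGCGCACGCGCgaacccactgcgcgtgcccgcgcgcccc

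The family was well expressed. The mean log2 level of its genes had a median of 10.46, against 8.14 for all tested genes, and all 76 were above the latter. The chosen probe sets ran from 8.46 for Mrps11 to 13.07 for Mrpl42, but levels of different probe sets cannot be ranked as amounts of RNA. The 7 cardiomyocyte markers averaged 13.96 to 14.09 in the 4 groups and all lay above the filter, while 3 of 4 markers of skeletal muscle lay below it. In the 16α-LE2 group the mean of the fibroblast markers was 9.71 against 10.01 with placebo, that of the endothelial markers 9.50 against 9.83, and that of 4 red blood cell markers 8.61 against 8.08. Of 5 markers of smooth muscle and pericytes, 3 were lower with 16α-LE2 at an unadjusted limma p under 0.05, beside 7.8% of all tested genes. The other 2 were higher, by up to 0.30. The median over the 5 was -0.33, and their mean was 10.05 against 10.18 with placebo. All 4 atrial markers were higher with estradiol than with placebo (median 0.34), but 0 at an unadjusted limma p under 0.05, beside 2.39% of all tested genes. Their mean ran from 9.37 to 11.61 on the estradiol arrays and from 9.22 to 10.34 on the placebo arrays. Of the markers, Slc4a1, an anion exchanger in the red cell membrane, was called with 16α-LE2 against placebo, 0.57 ± 0.11 higher (SE; limma adjusted p = 0.0256). The part of these shifts in the values below was not tested. In tissue RNA of this kind, fewer cells of a type and less RNA per cell cannot be told apart.

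Before any comparison of groups, the family moved from array to array as a block. With each gene set to its own mean over the 20 arrays, the median of the 76 genes was 0.156, 0.021, 0.232, 0.037 and 0.039 on the placebo arrays 31, 32, 33, 34 and 36. It was -0.087, -0.031, 0.082, 0.011 and 0.006 on the 16α-LE2 arrays 29, 30, 32, 33 and 34. On the estradiol arrays 29, 30, 33, 34 and 35 it was 0.086, 0.083, -0.280, 0.064 and 0.062. On the beta-titled arrays 31, 32, 33, 35 and 36 it was -0.240, -0.326, -0.017, 0.024 and 0.063. Thus 3 arrays stood well below the rest, estradiol 33 and beta-titled 31 and 32, and placebo 33 stood highest. This was not particular to the family. The like median of the ribosomal proteins of the cytosol was -0.199, -0.252, -0.318 and 0.213 on these arrays, in that order. Of the 76 genes, 41 had their lowest value on beta-titled 32, 26 on estradiol 33 and 6 on beta-titled 31, while 38 had their highest on placebo 33. The group means of these array medians were 0.097 ± 0.093 (SD, n = 5) for placebo, -0.0038 ± 0.062 for 16α-LE2, 0.0032 ± 0.159 for estradiol and -0.099 ± 0.173 for the beta-titled group, and every group overlapped every other.

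**Figure D1:**
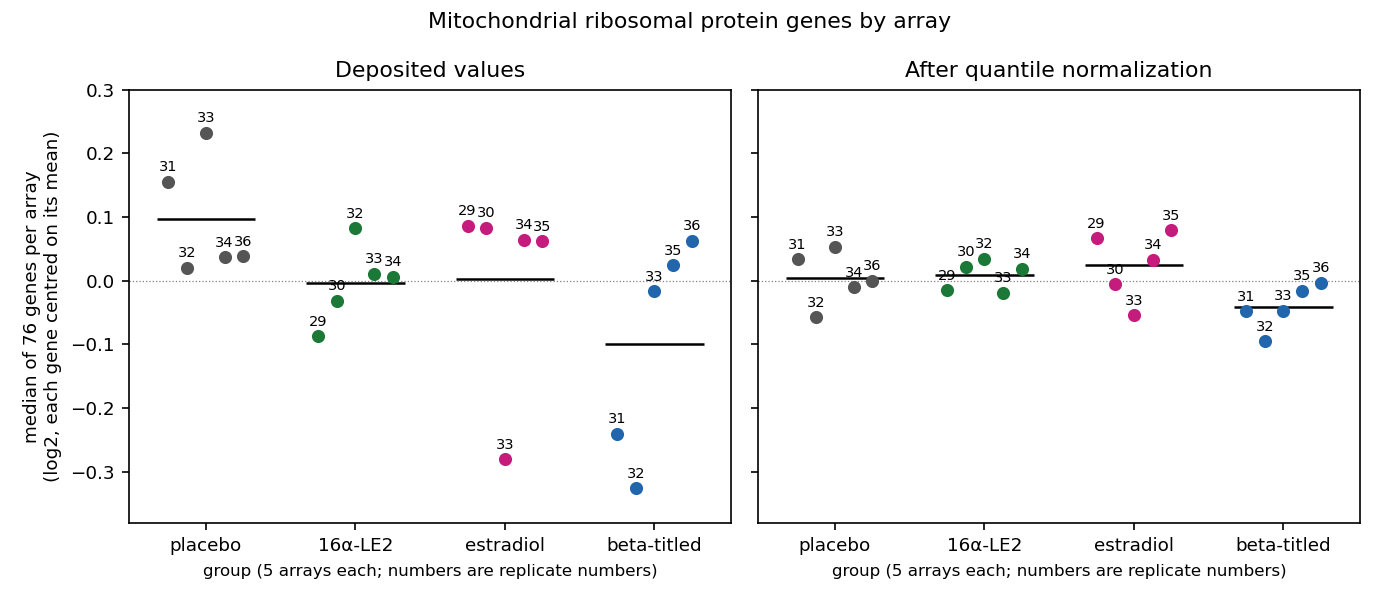
Median of the 76 genes on each array (y axis, log2, each gene centred on its mean over 20 arrays) by group, with the deposited values on the left and after quantile normalization on the right. Points are arrays labelled with their replicate number and black lines are group means. On the left estradiol 33 (-0.280) and beta-titled 31 and 32 (-0.240 and -0.326) lie apart below, and on the right all 20 arrays lie between -0.095 and 0.079.

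The same arrays differed in the spread of all their values. The SD over all 45101 probe sets was narrowest on beta-titled 32 (1.295), beta-titled 31 (1.323) and estradiol 33 (1.345), the 3 arrays with the lowest family median, and widest on placebo 33 (1.485), the array with the highest. Estradiol 33 also stood apart over all probe sets: its highest Spearman correlation with another array was 0.940, against 0.989 or more for every other array. On it the median of all tested genes was -0.183, and on beta-titled 32 it was -0.088. The deposited values were therefore also brought to 1 common distribution by quantile normalization. For each comparison, values without these 3 arrays are given too.

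**Figure D2:**
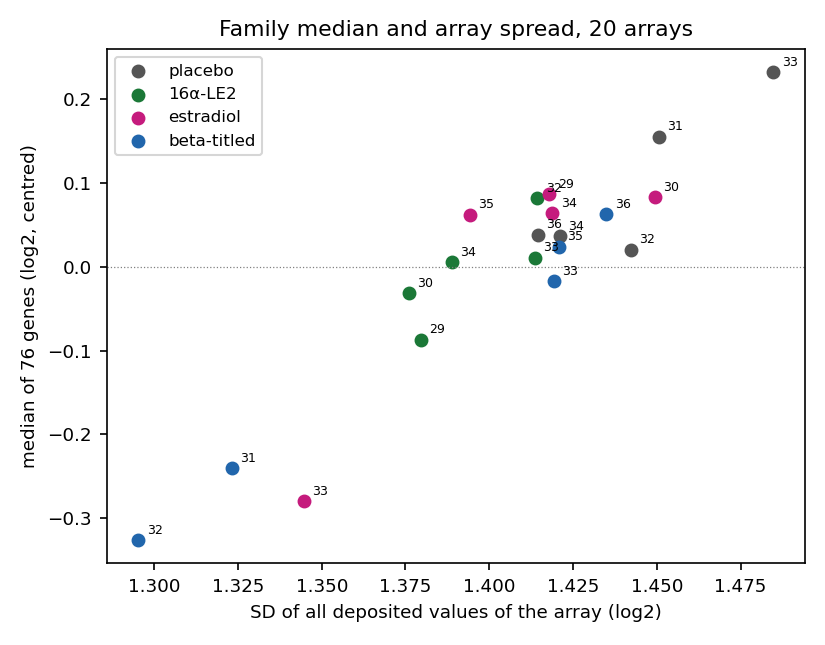
Family median of each array (y axis, log2, centred) against the SD of all deposited values of that array (x axis, log2). Points are the 20 arrays, coloured by group and labelled with their replicate number. The arrays of narrowest spread, beta-titled 32 (1.295) and 31 (1.323) and estradiol 33 (1.345), have the lowest family medians, and the widest, placebo 33 (1.485), has the highest.

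Single genes followed the block to different degrees. Over the 20 arrays, which all genes share, Pearson's r between a gene and the median of the other 75 had a median of 0.81, with 41 genes above 0.8. It was highest for Mrps16, a small subunit protein with a bacterial homologue, at 0.96, and lowest for Mrpl38, a large subunit protein that bacteria lack, at 0.088. After Mrpl38 came Mrpl4 (0.33), Mrpl39 (0.35), Mrps5 (0.38), Mrps34 (0.39), Mrpl10 (0.39) and Mrps15 (0.40). After quantile normalization the median r was 0.34 and only 2 genes were above 0.8. No such r was computed for other sets of genes. The median SD within groups was 0.161 for the family and 0.160 for all tested genes in the deposited values, and 0.106 against 0.145 after quantile normalization. Mrpl45 varied least within groups (0.099) and Mrpl50 most (0.246).

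**Figure D3:**
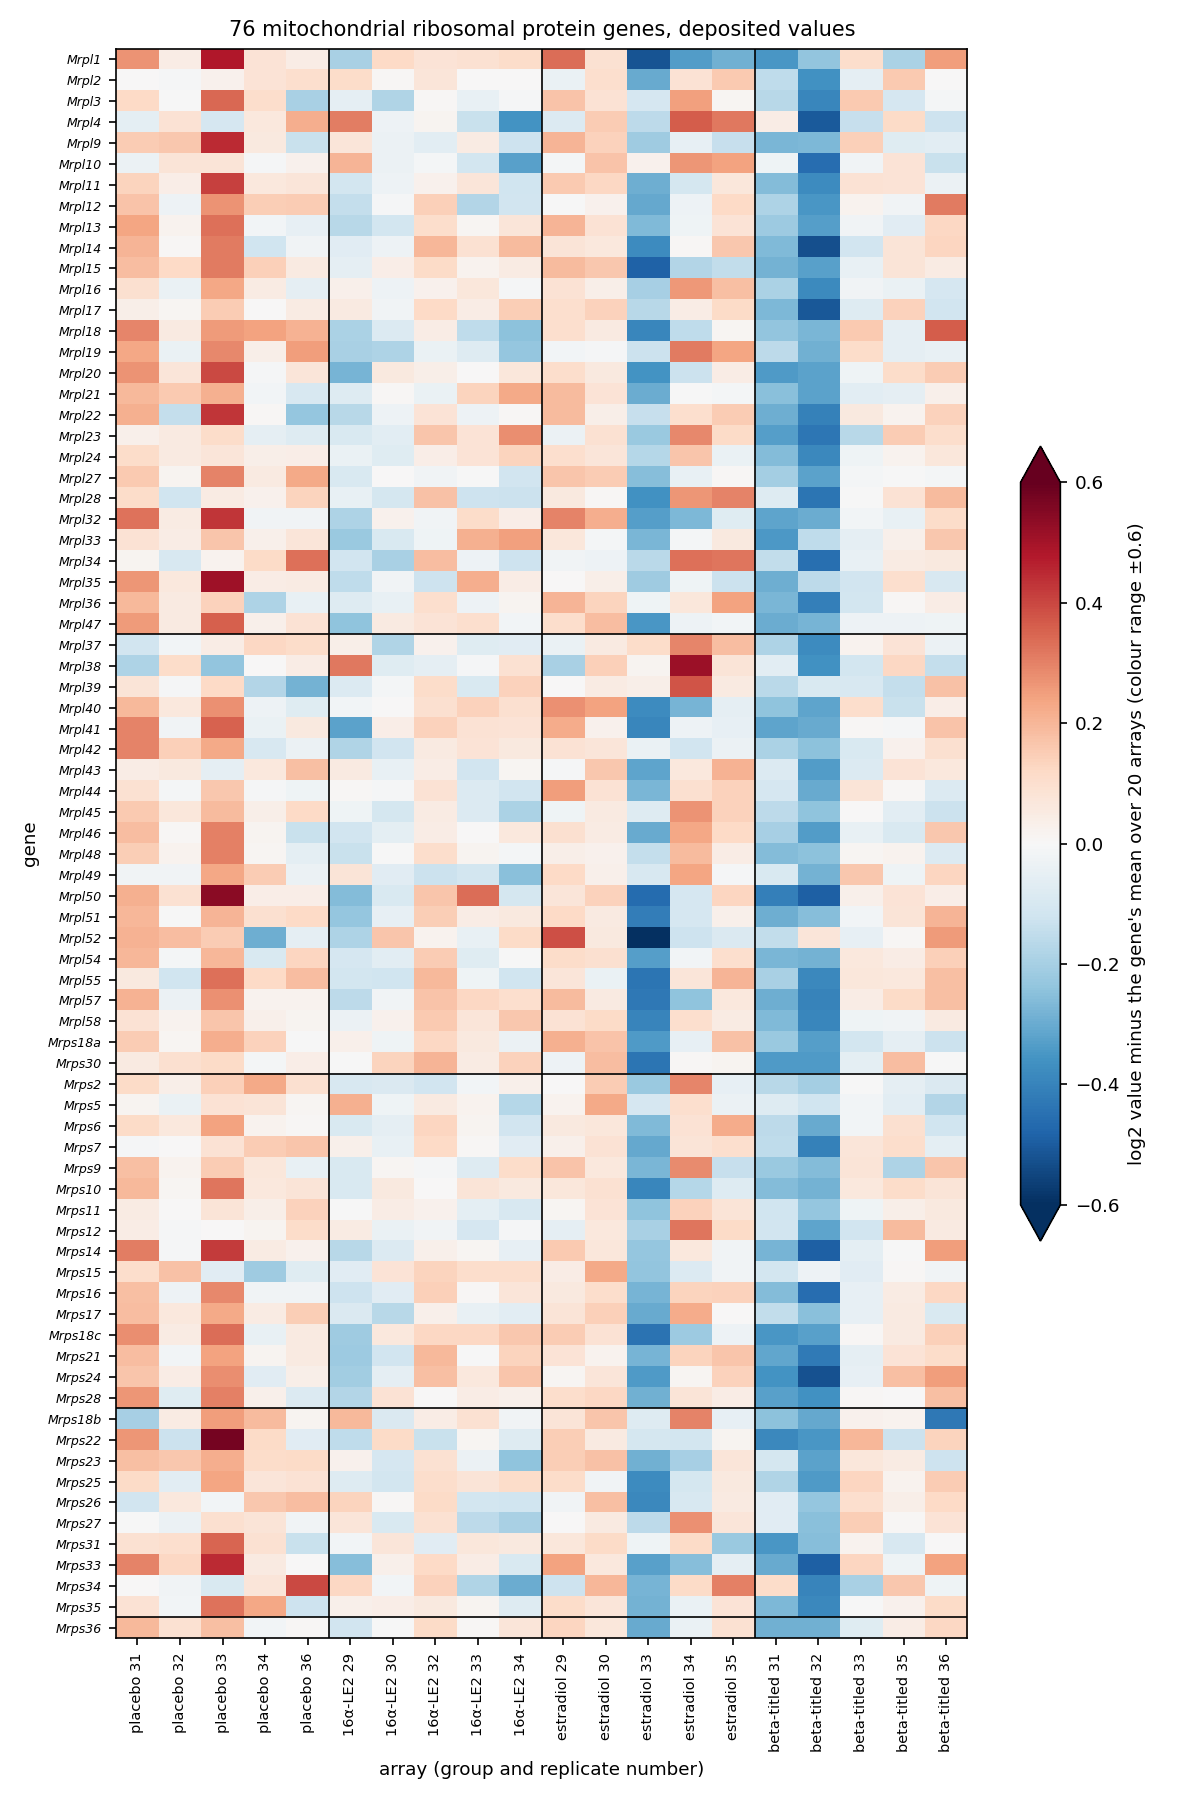
Deposited log2 value of each of the 76 genes (rows) on each of the 20 arrays (columns, by group), minus the gene's mean over all arrays, with the colour range ending at 0.6 in both directions. Horizontal lines part, from the top, large subunit proteins with bacterial homologues (28), large subunit proteins specific to mitochondria (21), small subunit proteins with bacterial homologues (16), small subunit proteins specific to mitochondria (10) and Mrps36. Columns stand out more than rows: placebo 33 is mostly red and estradiol 33 and beta-titled 31 and 32 mostly blue.

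Each agonist was first compared with placebo. The comparisons with placebo share the same 5 placebo arrays, so they are given side by side without a measure of their likeness. No gene of the family passed in any of the 6 comparisons at a limma adjusted p under 0.05 over all 12082 genes. With 16α-LE2, 68 of 76 genes were lower than with placebo (59.7% of all tested genes were), with a median of -0.086 against -0.028 for all tested genes. After quantile normalization the direction turned, with 31 genes lower and 45 higher and a median of 0.020, against 44.2% of all genes lower. The count of calls was 0 of 76, beside 0.223% of all tested genes (27), and the smallest adjusted p was 0.281. At an unadjusted limma p under 0.05, 4 genes were lower, beside 7.8% of all genes, and 0 were higher, beside 1.21%. After quantile normalization the balance turned, with 4 higher (3.33% of all genes) and 2 lower (4.52%). None of the 3 narrow arrays is a 16α-LE2 or placebo array. Leaving them out therefore could not change the family's median of -0.086, only the estimate of the spread. With them left out, 10 genes were under 0.05, beside 15.4% of all genes. For a gene of the family the 95% confidence interval reached a median of 0.22 to either side, so that shifts of the size of the median could not be resolved for single genes.

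Mrpl18, a large subunit protein with a bacterial homologue, showed the largest difference. Its log2 values were 11.21, 10.97, 11.17, 11.16 and 11.13 on the placebo arrays and 10.73, 10.84, 10.96, 10.77 and 10.67 on the 16α-LE2 arrays. The groups did not overlap, although the highest 16α-LE2 array and the lowest placebo array nearly met. The difference was -0.33 ± 0.12 (SE), a 1.26-fold lower level, and did not pass (limma adjusted p = 0.33). After quantile normalization it was -0.21 ± 0.077, and the groups overlapped. Mrpl19, also a large subunit protein with a bacterial homologue, was 9.24, 8.97, 9.30, 9.05 and 9.26 with placebo and 8.82, 8.83, 8.97, 8.93 and 8.78 with 16α-LE2. Of the 16α-LE2 arrays, 4 lay below all placebo arrays and 1 was level with the lowest, and the difference was -0.30 ± 0.10 (limma adjusted p = 0.281) in the deposited values and -0.20 ± 0.081 after quantile normalization. Mrpl19 has 4 probe sets on the array, and the values here are those of the chosen one alone. Mrps33 (-0.21 ± 0.14) and Mrps23 (-0.21 ± 0.10), small subunit proteins that bacteria lack, came next. In all, 5 genes had every 16α-LE2 array below every placebo array, Mrpl18, Mrpl27, Mrps2, Mrps17 and Mrps23, beside 2.7% of all tested genes. After quantile normalization there was none (1.37% of all genes), and 4 others, Mrpl17, Mrpl23, Mrpl58 and Mrps30, had every 16α-LE2 array above every placebo array (1.46%). The largest differences upward were those of Mrpl38 (0.11 ± 0.12), Mrps15 (0.087 ± 0.094), Mrpl39 (0.067 ± 0.10) and Mrpl23 (0.061 ± 0.12), each smaller than its SE.

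With estradiol, 59 of 76 genes were lower than with placebo (57.1% of all tested genes), with a median of -0.089 against -0.028. Without estradiol 33, or all 3 narrow arrays, the median was -0.012, with 42 genes lower, and after quantile normalization it was 0.029, with 47 genes higher and 29 lower (49.6% of all genes lower). No gene of the family passed limma's test, nor did any other gene (0%), and the smallest adjusted p was 0.499. At an unadjusted limma p under 0.05, 5 genes were lower, beside 7.23% of all genes, and 0 higher, beside 2.39%. After quantile normalization this reversed, with 0 lower (5.28% of all genes) and 6 higher (3.54%). Without the 3 narrow arrays 2 genes were under 0.05, beside 5.94%.

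Mrpl1, a large subunit protein with a bacterial homologue, was 9.80, 9.55, 8.95, 9.13 and 9.18 on the estradiol arrays and 9.74, 9.51, 9.95, 9.55 and 9.51 with placebo. Of the estradiol arrays, 3 lay below all placebo arrays and 2 among them, and the difference was -0.33 ± 0.14 (limma adjusted p = 0.499). Mrpl18 was 11.02, 10.97, 10.53, 10.77 and 10.93, lowest on estradiol 33, and differed by -0.29 ± 0.12. Mrpl15 (-0.25 ± 0.11) and Mrpl35 (-0.25 ± 0.11), likewise of the large subunit and with bacterial homologues, followed. Without estradiol 33 the difference was -0.23 for Mrpl1, -0.21 for Mrpl18 and -0.16 for Mrpl15. That of Mrpl35 ranged from -0.29 to -0.17 with each array left out. For Mrpl35 the estradiol arrays, 10.74, 10.77, 10.52, 10.71 and 10.61, all lay below the placebo arrays, 11.00, 10.80, 11.25, 10.78 and 10.79. In the deposited values it was the only gene of the family without overlap between these groups, beside 0.67% of all tested genes. After quantile normalization no gene was wholly lower (0.48% of all genes) and 3 were wholly higher (0.364%), namely Mrpl17, Mrpl23 and Mrpl39.

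Mrpl39, a large subunit protein that bacteria lack and whose promoter holds the NRF1 letters shown above, went the other way. It was 11.36, 11.28, 11.40, 11.11 and 11.00 with placebo and 11.29, 11.33, 11.32, 11.66 and 11.34 with estradiol. The groups overlapped, estradiol 34 stood highest, and the difference was 0.16 ± 0.10 (limma adjusted p = 0.507). After quantile normalization the estradiol arrays read 11.28, 11.25, 11.55, 11.68 and 11.36 and the placebo arrays 11.21, 11.17, 11.20, 11.07 and 10.94. The groups then did not overlap, and the difference was 0.30 ± 0.088 (limma adjusted p = 0.547). Another probe set of Mrpl39 differed by 0.12 in the deposited values. Mrpl38 (0.16 ± 0.12), Mrpl10 (0.11 ± 0.10) and Mrpl36 (0.093 ± 0.098) were the other genes with the largest differences upward.

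In the deposited values and after quantile normalization the family's median was lowest in the beta-titled group, but without the 3 narrow arrays it was lowest with 16α-LE2. In the deposited values all 76 genes were lower than with placebo, against 62.6% of all tested genes, with a median of -0.188 against -0.039 and a range from -0.333 to -0.009. After quantile normalization 60 were lower and 16 higher, with a median of -0.038, beside 47.4% of all genes lower. Without the 3 arrays of narrowest spread, 63 were lower with a median of -0.059. The calls were 0 of 76, and 0% of all genes, with a smallest limma adjusted p of 0.707. At an unadjusted limma p under 0.05, 21 genes were lower, beside 5.33% of all genes, and 0 higher, beside 0.372%. This count was 0 after quantile normalization, beside 1.16% of all genes, and 4 without the 3 arrays, beside 1.12%. After quantile normalization 0 were higher too, beside 0.869%.

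Mrpl50, a large subunit protein that bacteria lack, had the largest difference, -0.33 ± 0.15 (limma adjusted p = 0.707). It was 9.95, 9.83, 10.28, 9.78 and 9.78 with placebo and 9.33, 9.25, 9.77, 9.82 and 9.78 in the beta-titled group, where arrays 31 and 32 were low and the other 3 lay at the lower end of placebo. Without the 3 narrow arrays its difference was -0.13 ± 0.13. Mrpl35 was 10.45, 10.58, 10.62, 10.84 and 10.64 in the beta-titled group, with 1 array among those of placebo, and differed by -0.30 ± 0.11 (limma adjusted p = 0.707), or by -0.22 ± 0.11 without the 3 arrays. Mrpl47, of the large subunit and with a bacterial homologue, was 10.47, 10.27, 10.57, 10.24 and 10.30 with placebo and 9.91, 9.93, 10.18, 10.18 and 10.19 in the beta-titled group. These did not overlap, and the difference was -0.29 ± 0.11, or -0.19 ± 0.096 without the 3 arrays. Mrps14, of the small subunit and with a bacterial homologue, was at -0.28 ± 0.12. Its beta-titled arrays read 10.94, 10.73, 11.16, 11.21 and 11.47, lowest on the narrow arrays 31 and 32. With each array left out, its difference ranged from -0.37 (without beta-titled 36) to -0.18 (without beta-titled 32). In all, 6 genes had every beta-titled array below every placebo array, Mrpl27, Mrpl45, Mrpl47, Mrps2, Mrps18a and Mrps23, beside 0.406% of all tested genes. After quantile normalization Mrps2 alone did so, beside 0.215%. For Mrpl45, whose promoter holds both NRF1 matches shown, the values were 9.77, 9.68, 9.81, 9.65 and 9.73 with placebo and 9.46, 9.38, 9.62, 9.55 and 9.49 in the beta-titled group.

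**Figure D4:**
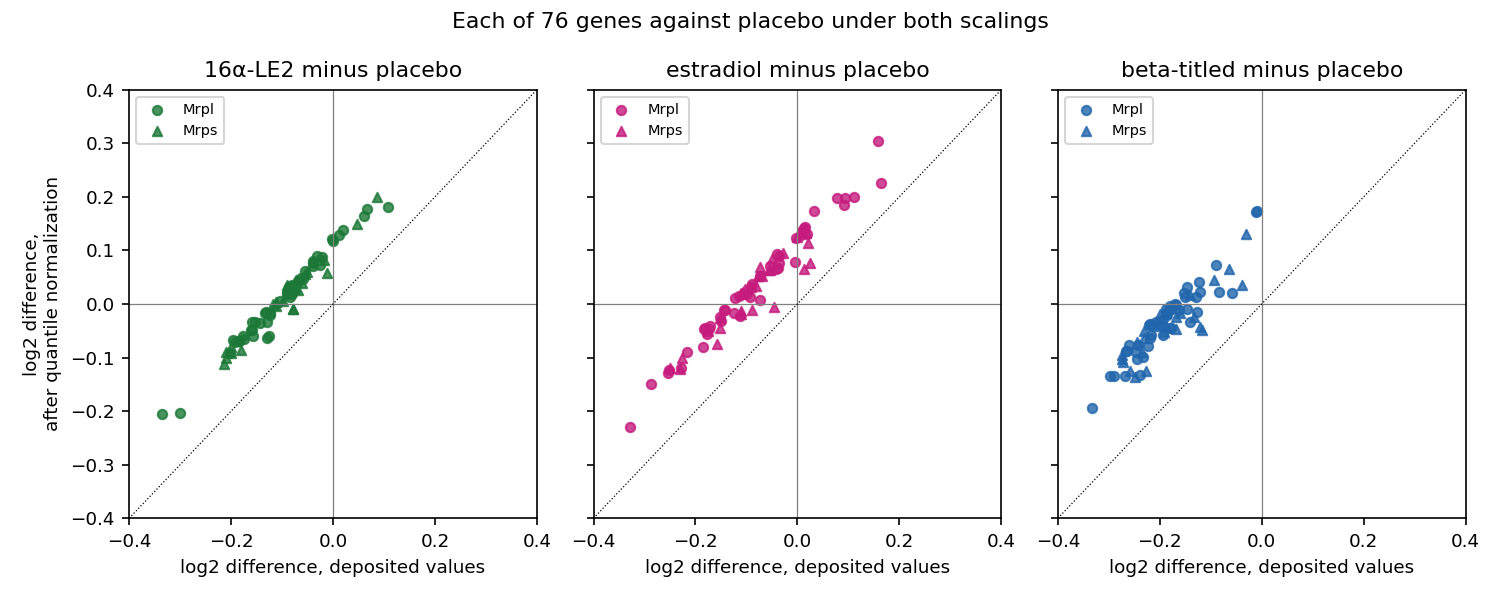
Difference of each of the 76 genes from placebo in the deposited values (x axis, log2) and after quantile normalization (y axis, log2), for 16α-LE2, estradiol and the beta-titled group. Circles are Mrpl and triangles Mrps genes, and the dotted line marks equal values. Quantile normalization raised the medians from -0.086 to 0.020, from -0.089 to 0.029 and from -0.188 to -0.038.

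The treated groups were also set against each other. Between 16α-LE2 and estradiol, compared at the same duration but at doses not given, 44 genes were lower and 32 higher with 16α-LE2 (56.3% of all tested genes lower), and the median was -0.018 against -0.017 for all tested genes (-0.020 after quantile normalization). None of the 76 was called, beside 0.0166% of all genes (smallest limma adjusted p = 0.875), and at an unadjusted p under 0.05 there was 1 gene lower, beside 2.92%, and 0 higher, beside 2.27%. After quantile normalization there was 1 lower (2.69%) and 1 higher (4.02%). The 1 gene in the deposited values was Mrpl19, with -0.23 ± 0.10 and a 95% confidence interval from -0.43 to -0.021. Its estradiol arrays were 9.00, 9.00, 8.88, 9.32 and 9.25, of which estradiol 33 lay among the 16α-LE2 arrays. Without the 3 narrow arrays 64 genes were lower with 16α-LE2, the median was -0.080, and 10 genes were under 0.05, beside 7.36% of all genes. The other genes with the largest differences were Mrpl10 (-0.20 ± 0.10), Mrpl1 (0.18 ± 0.14) and Mrps30 (0.16 ± 0.11).

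Against the beta-titled group, 70 of 76 genes were higher with 16α-LE2 (51.9% of all tested genes), with a median of 0.083 against 0.004, and 60 after quantile normalization, with a median of 0.045 (51.1% of all genes higher). Without the 3 narrow arrays the direction turned, with 53 lower, a median of -0.030 and 1 gene at an unadjusted p under 0.05 (8.83% of all genes). None was called, beside 0.174% of all genes (smallest limma adjusted p = 0.760), and 2 were higher at an unadjusted p under 0.05, beside 2.76%, and 0 lower, beside 2.84%. After quantile normalization these counts were 7 (3.3%) and 1 (3.58%). Mrpl17, of the large subunit and with a bacterial homologue, was 10.51, 10.43, 10.57, 10.50 and 10.60 with 16α-LE2 and 10.18, 9.94, 10.37, 10.59 and 10.34 in the beta-titled group. Of the latter, 4 lay below all the 16α-LE2 arrays, and the difference was 0.24 ± 0.10 (limma adjusted p = 0.76), or 0.20 ± 0.062 after quantile normalization. The lowest values, 10.18 and 9.94, were those of the narrow arrays, beta-titled 31 and 32. With each array left out, the difference ranged from 0.15 (without beta-titled 32) to 0.31 (without beta-titled 35). Mrps18b, a small subunit protein, differed by 0.23 ± 0.11 (limma adjusted p = 0.858). Mrps18a had every 16α-LE2 array above every beta-titled array, the only such gene of the family, beside 0.993% of all tested genes. After quantile normalization these were Mrpl24 and Mrpl58 instead, beside 1.42%. Mrpl18 (-0.11 ± 0.12) and Mrpl49 (-0.074 ± 0.097) had the largest differences downward.

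With estradiol 68 genes were higher than in the beta-titled group (59.4% of all tested genes), with a median of 0.107 against 0.024, and 58 after quantile normalization, with a median of 0.071 (50.3% of all genes higher). Leaving out estradiol 33 raised the median to 0.174, and leaving out beta-titled 32 lowered it to 0.037. Without the 3 narrow arrays it was 0.050, with 20 genes lower and 2 at an unadjusted p under 0.05, beside 3.49% of all genes. None was called, as for all genes (0%; smallest limma adjusted p = 0.925), and 7 were higher at an unadjusted p under 0.05, beside 2.32%, and 0 lower, beside 1.51%. After quantile normalization 8 were higher (2.23%) and 0 lower (3.13%). Mrpl36, a small large-subunit protein with a bacterial homologue, was 9.86, 9.79, 9.63, 9.72 and 9.90 with estradiol and 9.38, 9.25, 9.54, 9.66 and 9.70 in the beta-titled group. The groups overlapped in part and the difference was 0.27 ± 0.098 (limma adjusted p = 0.925), or 0.24 ± 0.071 after quantile normalization, when it was the only gene of the family without overlap (0.29% of all genes). Mrps18b was 9.31, 9.40, 9.16, 9.53 and 9.19 with estradiol and 8.99, 8.93, 9.26, 9.26 and 8.81 in the beta-titled group, a difference of 0.27 ± 0.11. Mrpl52 (-0.11 ± 0.14) and Mrpl18 (-0.066 ± 0.12) had the largest differences downward.

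**Figure D5:**
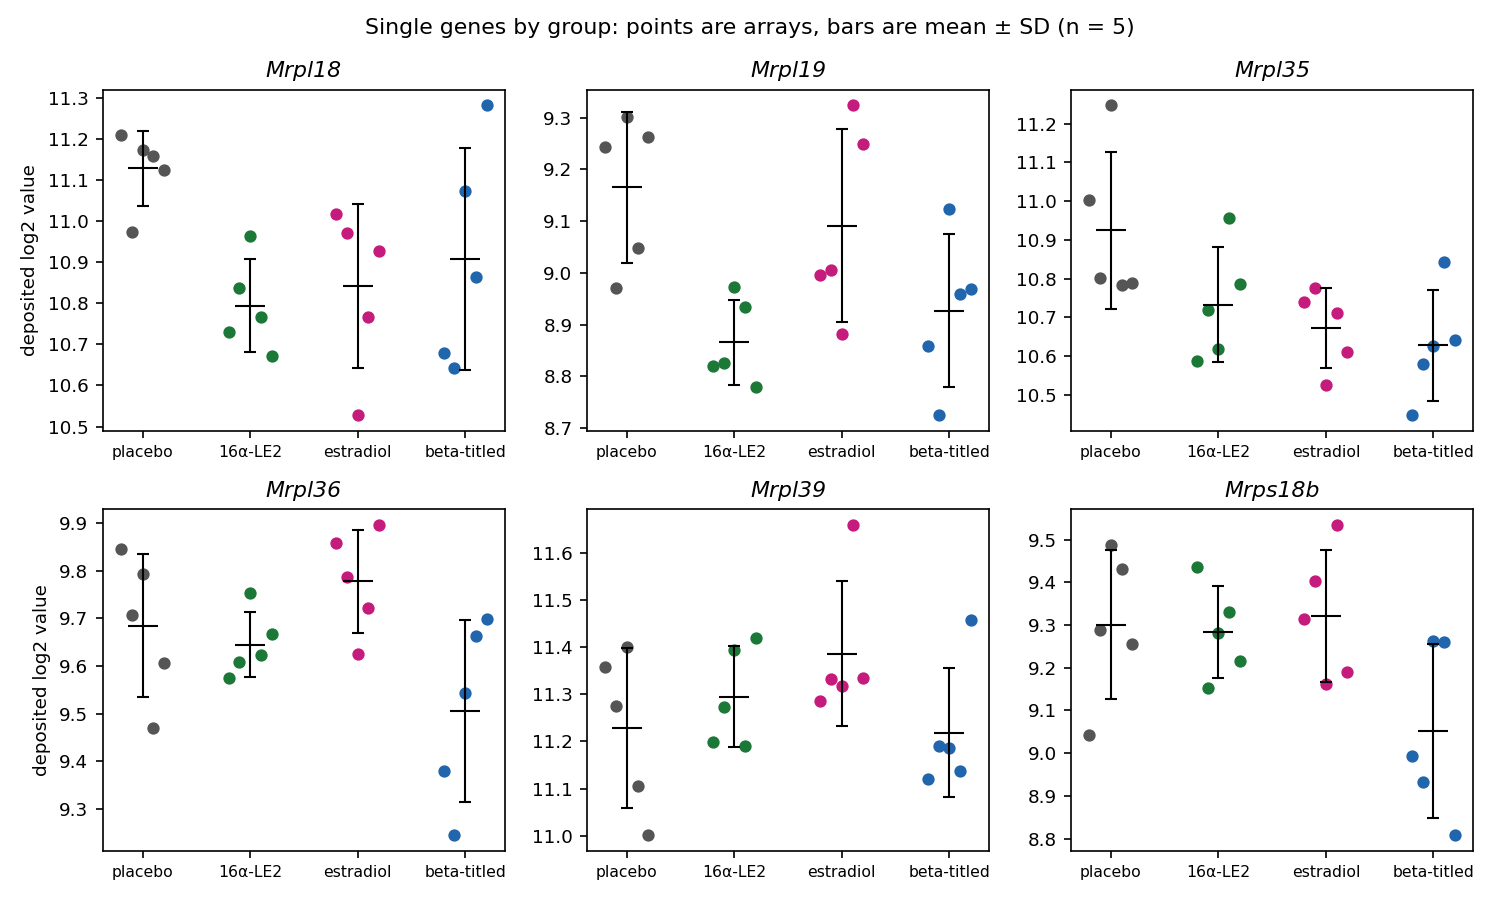
Deposited log2 values (y axis, with its own range in each panel) of Mrpl18, Mrpl19, Mrpl35, Mrpl36, Mrpl39 and Mrps18b by group. Points are arrays and bars are mean ± SD (n = 5). Mrpl18 had all 16α-LE2 arrays (10.67 to 10.96) below all placebo arrays (10.97 to 11.21), and Mrpl39 had 1 high array each with estradiol (11.66) and in the beta-titled group (11.46).

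In the deposited values placebo was highest for 54 of 76 genes and the beta-titled group lowest for 64, beside 41.7% and 28.5% of all tested genes. After quantile normalization placebo was highest for 23, estradiol for 33 and 16α-LE2 for 18, while the beta-titled group was lowest for 42, beside 19.2% of all tested genes. After quantile normalization the group means of the array medians were 0.0039 ± 0.043 (SD, n = 5) for placebo, 0.0083 ± 0.024 for 16α-LE2, 0.024 ± 0.055 for estradiol and -0.042 ± 0.035 for the beta-titled group. The beta-titled arrays then read -0.048, -0.095, -0.047, -0.015 and -0.0031, all at or below 0, and the placebo arrays 0.034, -0.057, 0.053, -0.0098 and 1.4e-05, so that the groups overlapped.

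The parts of the ribosome gave like values. Against placebo, the 28 large subunit proteins with bacterial homologues had medians of -0.126 with 16α-LE2, -0.090 with estradiol and -0.213 in the beta-titled group. The 21 large subunit proteins specific to mitochondria, which include Mrps30 and Mrps18a despite their names, had medians of -0.081, -0.073 and -0.170. The 16 small subunit proteins with bacterial homologues were at -0.085, -0.075 and -0.189, and the 10 specific to mitochondria at -0.084, -0.111 and -0.220. Mrps36, which was later assigned to the α-ketoglutarate dehydrogenase complex, stands apart from all 4. After quantile normalization these medians lay between -0.055 and 0.053 in all 4 parts, and those with 16α-LE2 and estradiol turned positive, except for the large subunit proteins with bacterial homologues with 16α-LE2 (-0.016). The 12 genes with NRF1 letters had medians of -0.074, -0.082 and -0.202 against placebo, beside -0.084, -0.090 and -0.189 for the 55 matched genes without them. After quantile normalization these were 0.039, 0.047 and -0.027, beside 0.019, 0.022 and -0.039.

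For 42 of the 76 genes the array holds other probe sets, 80 in all, of which 52 lay above the filter. The sign of the chosen probe set was shared by 53 of the 80 for 16α-LE2 against placebo, 44 for estradiol and 53 for the beta-titled group, and by 44, 35 and 45 of the 52. Probe sets of a gene share its RNA and its arrays.

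Genes that work with the mitochondrial ribosome were read from further lists, and no gene of these lists passed limma's test against placebo. Single genes of these lists are given in the deposited values only, which carry the shifts between arrays described above. Of 7 ribosomal proteins with other symbols 4 could be tested, with medians against placebo of -0.091 with 16α-LE2, -0.102 with estradiol and -0.200 in the beta-titled group (0.0041, 0.020 and -0.032 after quantile normalization). Chchd1, a small subunit protein, was at -0.25 ± 0.13 in the beta-titled group, and Ptcd3, which is a small subunit protein too, at -0.19 ± 0.13 with either agonist. The 25 tested assembly factors had medians of -0.079, -0.035 and -0.114 (-0.014, -0.00086 and -0.059 after quantile normalization). Among them Mrm2, a methyltransferase of mitochondrial ribosomal RNA, was at -0.16 ± 0.075 with 16α-LE2, and Mterf4, which helps to join the subunits, at -0.24 ± 0.095 in the beta-titled group. The 16 translation factors had medians of -0.077, -0.022 and -0.094 (-0.047, 0.051 and -0.0071 after quantile normalization), and Mrrf, the ribosome recycling factor, was at -0.23 ± 0.099 in the beta-titled group. Mtif2, an initiation factor, was at -0.28 ± 0.15 with estradiol, and Mtrf1l, a release factor, at -0.13 ± 0.070 with 16α-LE2.

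The 16 mitochondrial tRNA synthetases had medians of -0.0072, -0.0046 and -0.055 (0.040, 0.034 and -0.0026 after quantile normalization). Aars2, for alanine, was at 0.12 ± 0.070 with 16α-LE2, Sars2, for serine, at 0.21 ± 0.095 with estradiol, and Cars2, for cysteine, at -0.17 ± 0.088 in the beta-titled group. The 10 genes of mitochondrial transcription and DNA maintenance had medians of -0.023, -0.085 and -0.128 (0.038, -0.029 and -0.041 after quantile normalization). Tfam, which packs mitochondrial DNA and starts its transcription, was at -0.40 ± 0.12 (limma adjusted p = 0.176) with 16α-LE2, -0.30 ± 0.12 with estradiol and -0.39 ± 0.12 in the beta-titled group. After quantile normalization the lowest differences of any gene in this list were -0.30, -0.21 and -0.26. The 9 regulators had medians of -0.124, -0.121 and -0.117 (-0.018, -0.042 and -0.080 after quantile normalization). Among them Yy1 was at -0.45 ± 0.12 with estradiol (limma adjusted p = 0.499), Gabpb1, a GABP subunit, at -0.14 ± 0.066 with 16α-LE2 and Ppargc1a, a coactivator of mitochondrial genes, at -0.29 ± 0.12 in the beta-titled group. Nrf1 itself was at 0.036 ± 0.050, -0.081 ± 0.050 and -0.056 ± 0.050.

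The ribosomal proteins of the cytosol, which share the array but no subunit with this family, were read beside it. Of 43 tested, 41 were lower than placebo with 16α-LE2, 42 with estradiol and 43 in the beta-titled group, with medians of -0.075, -0.113 and -0.185. After quantile normalization the medians were -0.013, -0.017 and -0.014, beside 0.020, 0.029 and -0.038 for the mitochondrial family. Genes so similar across copies can share probes with pseudogenes, so single values of this list were not used. No difference between the cytosolic and the mitochondrial set was tested.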

How the data were processed

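The deposited values are log2 expression values, 1 for each of 45101 probe sets on each of 20 Affymetrix arrays. The unit was read from their range, 5.07 to 15.31, because how the authors summarized and normalized them is not given in the sources used here. Per the labels, 100 ng of total RNA was biotin-labelled for each array. On that reading a difference of 1 is 2-fold. Background signals of probe sets were not used. The number of arrays limits the precision.

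After 64 control probe sets were left out, 34945 probe sets had 1 symbol in the platform annotation, 932 had several and 9160 none, and the last 2 kinds were not named. The filter was a mean above the median of all probe sets that are not controls. Samples were grouped by title. All 20 arrays were fitted with limma 3.58.1 in R 4.3.3 (group means, eBayes with an intensity trend), with Benjamini-Hochberg adjustment over all 12082 genes and calls at an adjusted p under 0.05. The fit was repeated after quantile normalization. Named genes of the family were those called, those with an unadjusted p under 0.01, the 4 largest differences each way in comparisons with placebo and the 2 each way in the others. From the other lists these were called genes and the gene of smallest p in each comparison with placebo. Slc4a1 was the only called one. Genes named for groups that did not overlap, for their correlation, level or spread, and Nrf1, were chosen after their values were seen. The members and lists were chosen with earlier results of these data known. The alternatives changed the filter, how probe sets of a gene were summarized, scaling, array weights, the intensity trend, the arrays in the fit, pooled controls, the replicate number as a block, the threshold and each array left out. Leaving out the 3 arrays of narrowest spread was added after the data were seen.

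The fit was tested on simulated data for the beta-titled group against placebo, with 200 of 12082 genes changed over 10 runs. It recovered 55.1% of changes of 0.4 and 96.5% of those of 0.8 (log2), and 3.93% of calls were false. Genes were drawn independently there, unlike on real arrays. All differences of the family's genes from placebo were smaller than 0.4, and no change below 0.4 was simulated. The plots were made with matplotlib 3.10.9.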

Additional observations from a re-analysis of the deposited data

Results flagged for a closer look

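Among 88 groups of 5 values (the family median and 21 named genes in 4 groups), 5 held an array far from the other 4 by Dixon's criterion (a gap over 0.71 of the range), and chance gives about 1 in 20. The family median of estradiol 33 was -0.280, with the other estradiol arrays at 0.062 to 0.086. Mrpl1 read 9.27 on 16α-LE2 array 29, with the others at 9.55 to 9.58. On the same array Mrps15 read 10.41, with the others at 10.56 to 10.61. Mrpl39 read 11.66 on estradiol 34, with the others at 11.29 to 11.34. It also read 11.46 on beta-titled 36, with the others at 11.12 to 11.19.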

How the results depend on the processing

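No gene of the family was called in any of the 6 comparisons under any of the alternatives run. The smallest limma adjusted p over them ranged from 0.0755 (without the 3 narrow arrays) to 0.694 (placebo and beta-titled arrays pooled as controls) for 16α-LE2 against placebo. The family's median difference moved by more than the 0.130 SD of the array medians within groups in 1 case, that of the beta-titled group against placebo after quantile normalization (-0.038). Without the 3 narrow arrays the same difference moved by just under this SD, to -0.059. The SD is that of single arrays, not of a difference between group means. The medians of the other comparisons were smaller than this SD, so even a change of sign could stay within it. After quantile normalization those against placebo turned to 0.020 with 16α-LE2 and 0.029 with estradiol. Without the 3 narrow arrays, that of 16α-LE2 against the beta-titled group turned to -0.030. The difference of the beta-titled group from placebo ranged from -0.231 to -0.130 with each array left out. For estradiol against placebo the range was -0.109 to -0.012, for 16α-LE2 against placebo -0.107 to -0.067, for 16α-LE2 against estradiol -0.080 to 0.011, for 16α-LE2 against the beta-titled group 0.026 (without beta-titled 32) to 0.122, and for estradiol against the beta-titled group 0.037 to 0.174. With pooled controls the median was -0.0086 for 16α-LE2 and 0.015 for estradiol. With array weights it was -0.070 for 16α-LE2, -0.0060 for estradiol and -0.129 for the beta-titled group, where estradiol 33 had a weight of 0.080.

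Of the named genes, Mrpl1 turned to -0.0024 between 16α-LE2 and estradiol, and Mrpl52 to 0.056 between estradiol and the beta-titled group, with the mean over a gene's probe sets. With each array left out, the latter difference ranged from -0.230 to 0.030 for Mrpl52 and from -0.133 to 0.027 for Mrpl18. The cause was not tested.

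The count of all genes called for 16α-LE2 against placebo, 27, was 16 with the mean over probe sets, 357 with array weights, 71 with pooled controls, 62 at an adjusted p under 0.10 and 60 without the 3 narrow arrays, and 8 (without placebo 31) to 74 (without estradiol 33) with each array left out. For 16α-LE2 against the beta-titled group, 21 became 13 with arrays centred on their median, 32 after quantile normalization, 122 with array weights, 46 with those 2 groups alone, 34 at an adjusted p under 0.10 and 10 without the 3 narrow arrays, and 7 to 37 with each array left out. For 16α-LE2 against estradiol, 2 became 0 to 20.

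Arrays with the same replicate number did not deviate together: the correlation over their 17 pairs had a median of -0.020 (-0.346 to 0.509), with 6 over 0.1, beside 0.0087 for other pairs. With the replicate number as a block, no gene of the family was called (0), and the medians against placebo were -0.106, -0.131 and -0.216. Between 16α-LE2 and estradiol the median turned to 0.024 (32 genes lower), and against the beta-titled group it was 0.090 with 16α-LE2 and 0.067 with estradiol. All genes called numbered 36 for 16α-LE2 against placebo, 4 against estradiol and 15 against the beta-titled group, and 0 in the other comparisons.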
